A study of Mus musculus with 23 samples.

Results

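The muscle tested here is the tibialis anterior of RE-RE mice, in which sympathetic nerve endings were attacked with 6-OHDA by injection into the muscle and which was set against RE-RE muscle that had no injection. All libraries that the labels give as RE-RE were used, 4 after 6-OHDA and 4 sham, 8 of the 23 libraries of the series, and the other 15 are wild-type and enter only as a comparison. RE-RE animals carry Bmal1(stopFL/stopFL), a blocked form of the clock gene Bmal1 (Arntl), together with Syt10-Cre(-/tg) and Hsa-Cre(-/tg), which unblock it in cells where a Cre is made. Hsa-Cre is driven by a promoter of skeletal muscle fibres and Syt10-Cre by one active in neurons, the clock neurons of the hypothalamus among them, so cells without either Cre are without Bmal1 in both groups. All animals were female C57BL/6 mice with free access to food, and each treatment has 2 libraries at zeitgeber time (ZT) 0, lights on, and 2 at ZT12, lights off. The 6-OHDA libraries 1 and 2 (ZT0) came from mice of 16 and 12 weeks, and libraries 3 and 4 (ZT12) from mice of 15 and 18 weeks. Sham library 1 (ZT0) came from a mouse of 10 weeks, and sham libraries 2 (ZT0), 3 and 4 (ZT12) from mice of 11 weeks. The wild-type libraries, 8 after the same dose of 6-OHDA and 7 sham, were of the same strain and sex, with ages of 12 to 16 weeks after 6-OHDA and 12 to 18 weeks in sham mice, at the same times.

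The dose was 50 mg/kg, given under isoflurane on repeated days over 2 weeks and dissolved in 0.3% ascorbic acid, with 2 weeks of recovery before the muscle was taken. Sham muscle received neither needle nor ascorbic acid, and its mice were younger, so the effects of the toxin, of injection and of age cannot be told apart. The labels do not say that the libraries of a group come from separate mice, and p-values therefore measure the spread between these libraries only.

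6-OHDA is a dopamine analogue that noradrenaline transporters carry into sympathetic endings, where it oxidises and destroys them. Sympathetic fibres run to the vessels of a muscle and close to its neuromuscular junctions, and beta-adrenergic receptors with cyclic AMP are among their signalling routes. A muscle that is injured or loses nerve input can rebuild its fibres from satellite cells, and such fibres pass through embryonic and neonatal myosins before they settle as fast or slow. The tibialis anterior of the mouse is almost wholly fast.

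Expression is given as FPKM, fragment counts scaled by exon length and sequencing depth, which the authors deposited as log2(FPKM + 0.01). Reads recovered from these values came to 24.0 to 29.4 M per 6-OHDA library and 21.1 to 31.4 M per sham library. Pvalb, a calcium buffer of fast fibres, was between 2497 and 7161 FPKM in the 6-OHDA libraries and between 6006 and 11832 FPKM in the sham libraries. RNA of fast muscle fibres was thus found in all 8 libraries, and which muscle it came from cannot be read from this gene. Transcripts of the mitochondrial genome took 9.26% to 19.2% of recovered reads after 6-OHDA and 15.4% to 27.6% in sham muscle. Spread between libraries was wide, with a median within-group SD of 0.451 log2 units over genes in RE-RE muscle and 0.216 in wild-type muscle. Library 2 of the 6-OHDA group stood closer to sham muscle than to the other injected libraries, and sham library 1 held high levels of bone-cell genes. Both are described with values further on, and counts are given with and without library 2.

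Across 12820 tested genes, none (0%) passed an adjusted p of 0.05 for 6-OHDA against sham in limma with time of day as a covariate. Unadjusted p-values under 0.05 were found for 1073 genes higher (8.37%) and 1177 genes lower (9.18%) in 6-OHDA muscle. All 4 injected libraries lay above all 4 sham libraries for 346 genes (2.7%), and below them for 246 genes (1.92%). These shares are the background for the counts of each gene group below. With the replicate numbers as a block, 1 gene passed in limma, the ubiquitin hydrolase gene Uchl1, best known from neurons (log2 difference 3.37 ± 0.24 SE, adjusted p = 0.0112). Uchl1 had 12.1, 3.06, 4.99 and 15.8 FPKM in 6-OHDA libraries 1 to 4, against 1.11, 0.418, 0.398 and 1.29 FPKM in sham libraries 1 to 4. The block treats same-numbered samples as pairs, and the values cannot show whether they are. Without 6-OHDA library 2, 192 genes (1.5%) rose and 69 (0.538%) fell past an adjusted p of 0.05, whereas leaving out any other single RE-RE library gave 0. Since library 2 was set aside for standing near the sham libraries, the 261 calls of that fit describe the other 3 injected muscles and are not a second test of the treatment. All 261 genes kept their sign when library 2 was put back. That fit reuses the values that gave the calls, so the kept signs are no support for them. In library 2 itself, 53 of the 192 genes that rose lay above every sham library and 15 of the 69 that fell lay below every one. The share of all tested genes for which library 2 lies beyond every sham library is not given here. These 2 counts thus have no background and do not measure a response of library 2.

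Genes of the slow fibre programme were higher in every injected muscle, library 2 included. Of 12 listed slow-fibre genes, all tested, 9 were higher at an unadjusted p under 0.05 and none lower, and 5 had all injected libraries above all sham libraries. The list's median log2 difference was 1.97, against -0.02 over all genes tested. Without library 2, 6 of the 12 rose in limma: Tnnt1, Myh7, Atp2a2, Tnni1, Tpm3 and Tnnc1. The mean log2 level of the list over the sham mean was 1.97, 1.41, 2.80 and 3.02 in 6-OHDA libraries 1 to 4. Sham libraries 1 to 4 stood at -0.68, -0.09, 0.87 and -0.11 on the same scale, so sham library 3 was the highest of its group.

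Tnnt1, the slow form of troponin T (ENSMUSG00000064179, GRCm38 chromosome 7, 4504570 to 4516382, minus strand), had 32.6, 15.4, 93.3 and 124 FPKM in 6-OHDA libraries 1 to 4, against 2.91, 3.64, 9.52 and 4.79 FPKM in sham libraries 1 to 4. The groups did not overlap, and the lowest injected value was that of library 2. The difference was 3.39 ± 0.37 log2 units (SE), 10.4-fold, at a limma adjusted p of 0.0519, the smallest over all genes and shared with Mir544. Myh7, the heavy chain of slow myosin (ENSMUSG00000053093, chromosome 14, 54970684 to 54994626, minus strand), had 19.995, 10.9, 34.9 and 69.4 FPKM in 6-OHDA libraries 1 to 4, against 0.0243, 0.556, 1.32 and 0.536 FPKM in sham libraries 1 to 4. Its difference was 6.29 ± 0.78 log2 units (limma adjusted p = 0.107), and it is sensitive to the near-zero value of sham library 1. With log2(FPKM + 1) in place of the deposited scale it was 4.19 ± 0.34, and both Myh7 (adjusted p = 0.00455) and Tnnt1 (0.0446) then passed in limma.

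Atp2a2, the calcium pump of slow fibres, had 39.0, 14.0, 33.6 and 46.8 FPKM after 6-OHDA, against 4.66, 7.22, 6.58 and 6.37 FPKM in sham muscle (log2 2.31 ± 0.34, limma adjusted p = 0.174). Tpm3, slow tropomyosin, had 16.6, 13.6, 41.8 and 43.1 FPKM after 6-OHDA, against 7.55, 6.83, 9.81 and 8.78 FPKM in sham muscle (log2 1.63 ± 0.25, adjusted p = 0.183). Neither gene's groups overlapped. Tnni1, slow troponin I, had 19.5, 4.86, 28.3 and 51.0 FPKM after 6-OHDA and 0.716, 0.675, 5.57 and 0.848 FPKM in sham muscle, where library 3 alone exceeded injected library 2. Tnnc1, the troponin C shared by slow and cardiac muscle, followed the same order, with 45.4, 23.8, 157 and 149 FPKM after 6-OHDA and 4.01, 2.499, 35.03 and 3.70 FPKM in sham muscle. Myl2, the slow regulatory light chain, had 21.9, 29.6, 91.2 and 64.4 FPKM after 6-OHDA and 3.78, 6.23, 27.3 and 3.37 FPKM in sham muscle, so sham library 3 was again the highest of its group. Myoz2, a slow-fibre protein of the Z disc, had 26.9 to 42.5 FPKM after 6-OHDA and 9.90 to 25.4 FPKM in sham muscle, without overlap.

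The starts of 4 of these genes, printed because the genes were higher together, were read from RefSeq (GRCm38.p6) as 250 bases before and 50 after the annotated start, 5′ to 3′ on the gene's strand. Capitals mark matches on either strand to the muscle motif M-CAT (CATTCC, read as GGAATG on the other strand), to the E-box CAGCTG bound by myogenic factors, or to the MEF2 motif. They lie at chr14:54994577-54994876 (minus strand), chr7:4515926-4516225 (minus), chr1:135799171-135799470 (plus) and chr14:31208062-31208361 (plus).
Myh7: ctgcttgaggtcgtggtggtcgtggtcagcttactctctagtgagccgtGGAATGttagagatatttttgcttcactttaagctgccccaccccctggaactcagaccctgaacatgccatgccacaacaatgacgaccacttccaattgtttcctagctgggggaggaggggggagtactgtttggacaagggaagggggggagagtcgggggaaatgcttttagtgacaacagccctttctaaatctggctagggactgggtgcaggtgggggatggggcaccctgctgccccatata
Tnnt1: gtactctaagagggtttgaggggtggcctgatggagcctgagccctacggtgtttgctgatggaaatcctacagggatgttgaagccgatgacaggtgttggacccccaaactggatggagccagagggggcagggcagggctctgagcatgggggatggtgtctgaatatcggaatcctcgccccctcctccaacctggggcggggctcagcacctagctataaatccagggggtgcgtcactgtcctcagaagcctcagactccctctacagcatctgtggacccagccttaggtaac
Tnni1: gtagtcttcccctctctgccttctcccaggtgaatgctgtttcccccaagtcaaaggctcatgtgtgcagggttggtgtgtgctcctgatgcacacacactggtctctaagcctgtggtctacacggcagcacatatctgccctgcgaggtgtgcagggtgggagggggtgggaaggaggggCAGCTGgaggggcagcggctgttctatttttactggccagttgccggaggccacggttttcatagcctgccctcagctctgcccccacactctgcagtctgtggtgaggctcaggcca
Tnnc1: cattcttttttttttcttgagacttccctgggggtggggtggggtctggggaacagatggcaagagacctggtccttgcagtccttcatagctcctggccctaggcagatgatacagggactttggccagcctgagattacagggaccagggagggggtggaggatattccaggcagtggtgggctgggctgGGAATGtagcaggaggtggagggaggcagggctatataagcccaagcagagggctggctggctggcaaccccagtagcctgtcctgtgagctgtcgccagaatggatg
The windows of Myh7 and Tnnc1 held 1 M-CAT match each, that of Tnni1 held 1 E-box, and that of Tnnt1 held none of the 3 motifs. Of all 32851 promoter windows of this length, 14.7% held M-CAT, 16.3% the E-box and 3.19% the MEF2 motif. The matches describe these windows only.

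**Figure D1:**
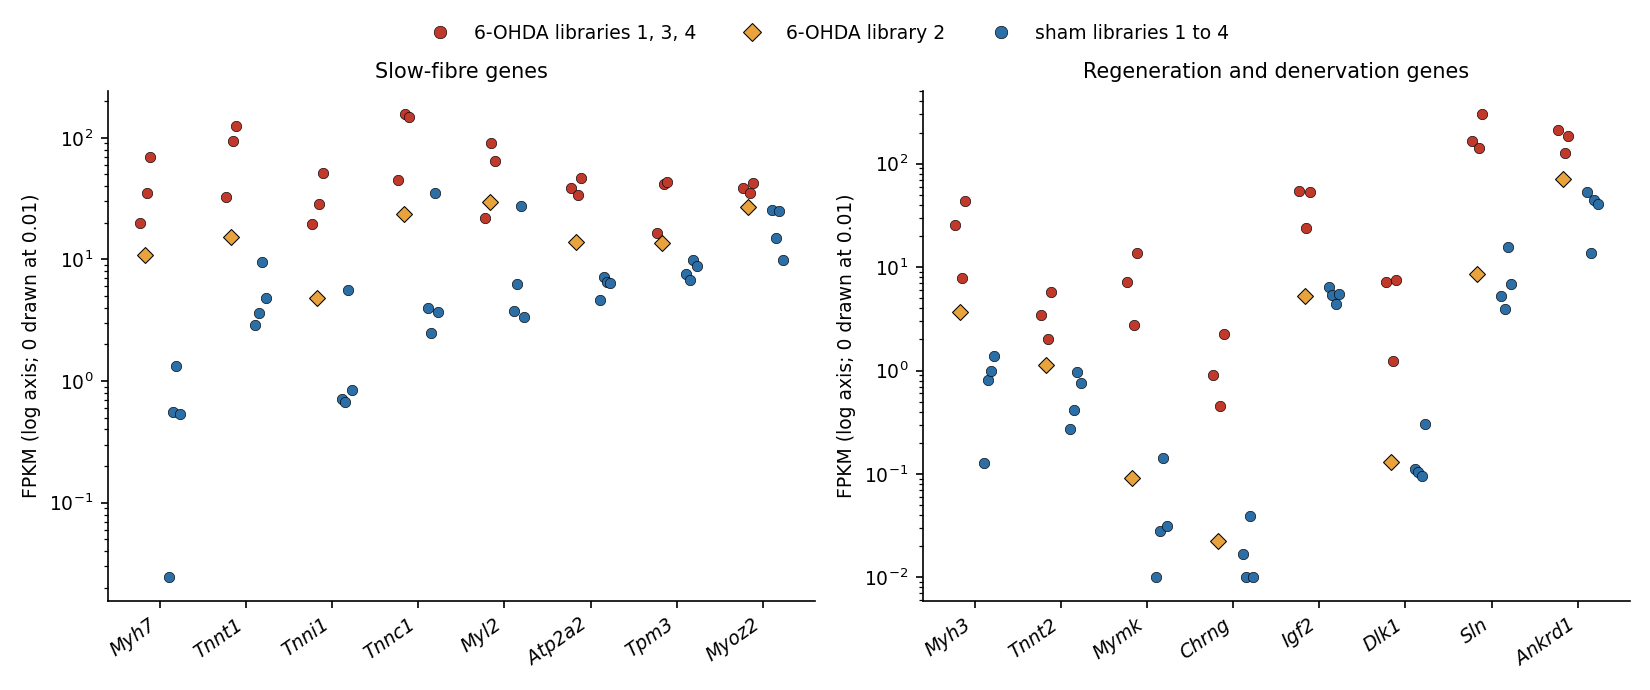
FPKM of slow-fibre genes (left) and of regeneration and denervation genes (right) in each RE-RE library on a log axis, with 6-OHDA libraries 1, 3 and 4 in red, 6-OHDA library 2 as an orange diamond and the 4 sham libraries in blue. For Myh7, from 10.9 to 69.4 FPKM in injected and 0.0243 to 1.32 FPKM in sham libraries, library 2 lies with the injected libraries, while for Mymk and Igf2 it lies among the sham libraries.

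The fast fibre programme showed no such pattern. Of 13 fast-fibre genes, 1 was higher at an unadjusted p under 0.05 and none lower, and the list's median was -0.31. That 1 gene was Myh2, the myosin of fast oxidative fibres, with 489, 224, 299 and 610 FPKM after 6-OHDA and 92.3, 255, 135 and 120 FPKM in sham muscle (log2 1.43 ± 0.42, limma adjusted p = 0.279). Pvalb had a difference of -0.85 ± 0.55. With each library scaled by its own total of recovered reads, the median of all genes moved to 0.37 and that of the fast-fibre list to 0.08. Energy genes lay at or below the sham mean, with medians of -0.46 over 20 genes of glycolysis and glycogen (4 lower at an unadjusted p under 0.05), -0.57 over 27 nuclear genes of oxidative phosphorylation (3 lower) and -1.20 over 13 genes of the mitochondrial genome (5 lower). All 3 medians were below 0 with own totals too, at -0.08, -0.18 and -0.82. With quantile normalization they were -0.04, -0.22 and -0.47, against -0.04 over all genes, so the glycolysis median then equalled that of all genes. The median of nuclear oxidative phosphorylation was -0.30 without sham libraries 1 and 3, and the fast-fibre median was 0.23 with quantile normalization. mt-Co3, a subunit of cytochrome oxidase, had 432, 1129, 1867 and 325 FPKM in 6-OHDA libraries 1 to 4, against 7341, 1216, 4388 and 3321 FPKM in sham libraries 1 to 4. Injected libraries 1, 2 and 4 were below all sham libraries, library 2 by little, and library 3 lay above sham library 2. Ppp1r3a, which brings a phosphatase to glycogen in muscle, had 33.003, 88.1, 41.6 and 22.6 FPKM after 6-OHDA and 145, 75.2, 138 and 67.4 FPKM in sham muscle.

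Genes of regenerating and developing fibres were higher in 3 injected muscles, while in library 2 their mean level lay only a little above the highest sham library. Of 19 such genes, 13 were higher at an unadjusted p under 0.05 and none lower, 4 did not overlap, and the median was 1.73. The list's level over the sham mean was 2.92, 0.44, 1.94 and 3.15 in 6-OHDA libraries 1 to 4, and -0.23, -0.15, 0.22 and 0.17 in sham libraries 1 to 4. Without library 2, 8 of the 19 rose in limma. Myh3, embryonic myosin (ENSMUSG00000020908, chromosome 11, 67078300 to 67102291, plus strand), had 25.5, 3.68, 7.93 and 43.2 FPKM after 6-OHDA, against 0.126, 0.803, 1.0003 and 1.37 FPKM in sham muscle. Its groups did not overlap, and the difference was 4.42 ± 0.80 log2 units (limma adjusted p = 0.251; 0.0438 without library 2). Tnnt2, the troponin T of embryonic and cardiac muscle, had 3.45, 1.12, 2.04 and 5.75 FPKM after 6-OHDA and 0.269, 0.413, 0.970 and 0.763 FPKM in sham muscle, also without overlap.

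Mymk, which fuses myoblasts, had 7.18, 0.0919, 2.79 and 13.8 FPKM in 6-OHDA libraries 1 to 4 and 0, 0.0282, 0.143 and 0.0311 FPKM in sham libraries 1 to 4. Library 2 was below sham library 3, while the other injected libraries were above every sham library. Without library 2 the difference of Mymk was 7.18 ± 0.90 log2 units (limma adjusted p = 0.0306), a size that depends on the 0.01 added before the log, since sham values were near 0. Igf2, a growth factor that myoblasts make as they differentiate, had 55.0, 5.26, 23.8 and 53.4 FPKM after 6-OHDA and 6.38, 5.33, 4.44 and 5.49 FPKM in sham muscle. Satellite-cell genes had a median of 0.66 over 7 tested genes, 1 of them higher at an unadjusted p under 0.05, and the median was 0.10 without sham libraries 1 and 3.

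Transcripts of the imprinted Dlk1-Dio3 region of chromosome 12 were high in the same libraries. This region, of which 5 genes were tested and which was picked after its values were seen, encodes Dlk1, a membrane protein of developing muscle, and the non-coding RNAs Meg3, Rian and Mirg. Meg3 (ENSMUSG00000021268, 109541001 to 109571726, plus strand) had 33.1, 4.04, 22.2 and 50.8 FPKM after 6-OHDA, against 1.67, 2.23, 2.37 and 4.52 FPKM in sham muscle. Rian had 35.9, 3.91, 18.1 and 34.4 FPKM after 6-OHDA, against 3.11, 1.601, 5.09 and 3.37 FPKM in sham muscle. Dlk1 had 7.18, 0.131, 1.23 and 7.56 FPKM after 6-OHDA, against 0.111, 0.106, 0.0956 and 0.307 FPKM in sham muscle. For these 3 genes library 2 lay inside the sham range, and for Mirg, the host of many microRNAs, it lay above it at 0.305 FPKM, against 0.0382 to 0.215 FPKM in sham muscle. Without library 2, Meg3 (log2 3.65 ± 0.38, limma adjusted p = 0.0232), Rian (3.15 ± 0.42, 0.031), Mirg (4.90 ± 0.59, 0.0297) and Dlk1 (4.81 ± 0.76, 0.0376) rose. Rtl1, also tested, did not pass (3.53 ± 0.70, limma adjusted p = 0.0519). With all RE-RE libraries none of the 5 genes passed, at limma adjusted p-values of 0.279 to 0.286. Mir544, a microRNA gene within Mirg, shared the smallest adjusted p of all genes, 0.0519 in limma, on 2, 3, 3 and 4 recovered reads after 6-OHDA and 0 in each sham library. These reads cannot be told apart from those of its host, and no fold is given because nearly all values are at or under 3 reads.

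Among 17 tested genes of denervation and fibre stress, 8 were higher and 1 lower at an unadjusted p under 0.05, with a median of 0.80. Sln, which uncouples the calcium pump (ENSMUSG00000042045, chromosome 9, 53850164 to 53854560, plus strand), had 167, 8.54, 142 and 303 FPKM in 6-OHDA libraries 1 to 4, against 5.27, 3.97, 15.8 and 6.93 FPKM in sham libraries 1 to 4. Library 2 fell within the sham range, and without it Sln rose by 4.66 ± 0.40 log2 units (limma adjusted p = 0.0117). Ankrd1, a stretch-responsive protein of the sarcomere, had 210, 70.4, 128 and 184 FPKM after 6-OHDA and 52.7, 13.7, 44.8 and 41.1 FPKM in sham muscle, without overlap (log2 2.01 ± 0.47, adjusted p = 0.279). Mstn, the inhibitor of muscle growth myostatin, was the gene that was lower. It had 4.45, 13.3, 11.0 and 2.67 FPKM after 6-OHDA and 48.0, 19.1, 31.7 and 30.0 FPKM in sham muscle, again without overlap (log2 -2.24 ± 0.52, limma adjusted p = 0.279). Fst, which encodes the myostatin antagonist follistatin, had 7.27, 2.14, 5.01 and 9.83 FPKM after 6-OHDA and 1.46, 1.004, 1.83 and 2.67 FPKM in sham muscle. Of the subunits of the acetylcholine receptor, Chrng, found in the fetal form only, had 0.908, 0.0222, 0.458 and 2.23 FPKM after 6-OHDA and 0 to 0.0390 FPKM in sham muscle. Chrnb1, found in both the fetal and the adult form, had 15.3 to 28.3 FPKM after 6-OHDA and 8.50 to 15.6 FPKM in sham muscle. Krt18, an intermediate filament protein, had 19.3, 0.165, 5.08 and 28.5 FPKM after 6-OHDA and 0.0914 to 0.249 FPKM in sham muscle.

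Interferon-induced genes were higher in all 4 injected muscles. Of 19 tested, 12 were higher at an unadjusted p under 0.05, none was lower and 6 did not overlap, while the median was 0.59. Oasl2, which belongs to the oligoadenylate synthetase family, had 1.96, 1.36, 2.72 and 3.35 FPKM after 6-OHDA, against 0.524, 0.649, 0.620 and 0.854 FPKM in sham muscle (log2 1.75 ± 0.28, limma adjusted p = 0.206; 0.0351 without library 2). Irf7, the transcription factor that amplifies interferon, had 3.15, 2.21, 5.21 and 6.16 FPKM after 6-OHDA, against 1.75, 1.47, 1.25 and 1.74 FPKM in sham muscle. Both were lowest in library 2 among injected libraries and still above every sham library. The same held for Oas1a, another synthetase of the family, at 0.491 to 2.21 FPKM after 6-OHDA and 0.287 to 0.473 FPKM in sham muscle, and for the ubiquitin-like Isg15, at 5.51 to 10.3 FPKM after 6-OHDA and 1.18 to 4.42 FPKM in sham muscle. Cxcl10, a chemokine induced by interferon, had 0.547 to 1.46 FPKM after 6-OHDA and 0.0568 to 0.340 FPKM in sham muscle.

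Of 15 tested cell cycle genes, 10 were higher at an unadjusted p under 0.05 and none lower, with a median of 1.48. Of the 15, 4 reached an FPKM of 1 in fewer than 2 RE-RE libraries. Library 2 was at 0.01 log2 units over the sham mean on this list, and libraries 1, 3 and 4 at 1.85, 1.598 and 2.36. Mki67, a marker of dividing cells, had 1.09, 0.147, 0.847 and 1.46 FPKM after 6-OHDA and 0.180, 0.0466, 0.161 and 0.0419 FPKM in sham muscle. Cdc20, an activator of the anaphase complex, had 1.02, 0.273, 0.574 and 2.11 FPKM after 6-OHDA and 0.0745 to 0.251 FPKM in sham muscle, without overlap. Mcm5, of the replicative helicase, had 1.16, 0.352, 1.17 and 1.55 FPKM after 6-OHDA and 0.269 to 0.357 FPKM in sham muscle. Mki67, Cdc20 and Mcm5 reached an FPKM of 1 in injected libraries only, so they were tested through the group where they are high. The count of higher genes on this list is therefore in part set by the filter. In bulk RNA more cells of a type and more RNA per cell cannot be told apart, here and for the cell-type lists that follow.

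Genes of connective tissue and of immune cells divided the injected libraries. Fibrillar matrix genes had a median of 0.89 over 23 genes, with 3 higher at an unadjusted p under 0.05, and macrophage genes a median of 1.05 over 22, with 1 higher and 1 lower. The matrix list stood at 1.64, -1.41, 0.46 and 1.95 over the sham mean in 6-OHDA libraries 1 to 4, and at 1.02, -0.28, -1.09 and 0.35 in sham libraries 1 to 4. The macrophage list stood at 1.93, -1.68, 0.65 and 2.09 in 6-OHDA libraries 1 to 4, and at 0.65, -0.65, 0.41 and -0.40 in sham libraries 1 to 4. Library 2 was thus below every sham library on both lists, and also on those of complement (-1.41) and adipocytes (-1.47). Without it, 4 matrix genes, 2 macrophage genes and 5 of 11 fibro-adipogenic genes rose in limma.

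Col14a1, a collagen that binds to fibril surfaces, had 17.3, 0.383, 3.69 and 17.5 FPKM after 6-OHDA and 1.201, 0.444, 0.586 and 0.817 FPKM in sham muscle. Mfap5, a glycoprotein of microfibrils, had 24.9, 2.21, 12.6 and 22.01 FPKM after 6-OHDA and 5.08, 3.21, 3.07 and 3.82 FPKM in sham muscle. Loxl1, which cross-links elastin, had 25.4, 5.42, 10.7 and 30.2 FPKM after 6-OHDA and 7.76, 5.61, 4.25 and 5.71 FPKM in sham muscle. In these 3 genes libraries 1, 3 and 4 exceeded all sham libraries, and library 2 was within the sham range for Loxl1 and below it for Col14a1 and Mfap5. Gpnmb, a glycoprotein of activated macrophages, had 8.32, 0.463, 1.67 and 17.1 FPKM after 6-OHDA and 0.460 to 0.865 FPKM in sham muscle. Fcer1g, a signalling chain of immune receptors, had 10.7, 1.06, 7.86 and 20.8 FPKM after 6-OHDA and 2.00 to 4.15 FPKM in sham muscle, and it rose without library 2 by 2.07 ± 0.38 log2 units (limma adjusted p = 0.0475). Spp1, osteopontin, which macrophages and bone cells both make, was the lower macrophage gene, with 4.17, 1.01, 7.88 and 11.3 FPKM after 6-OHDA and 165, 17.1, 5.84 and 50.7 FPKM in sham muscle (log2 -2.78 ± 1.07, limma adjusted p = 0.279). Sham library 1 was the highest for Spp1, and sham library 3 lay among the injected libraries. Endothelial genes differed in another way, since all 4 injected libraries stood close together at 0.57, 0.45, 0.47 and 0.61 over the sham mean, and the sham libraries were spread over -0.45, 0.47, -0.60 and 0.58. Of 16, 6 were higher at an unadjusted p under 0.05, among them the tight junction gene Cldn5, with 19.9 to 26.0 FPKM after 6-OHDA and 6.58 to 15.5 FPKM in sham muscle. Without sham libraries 1 and 3 the endothelial median of 0.64 was 0.18. Cdh5, the cadherin of endothelium, had 30.9 to 42.2 FPKM after 6-OHDA and 8.31 to 31.7 FPKM in sham muscle.

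**Figure D2:**
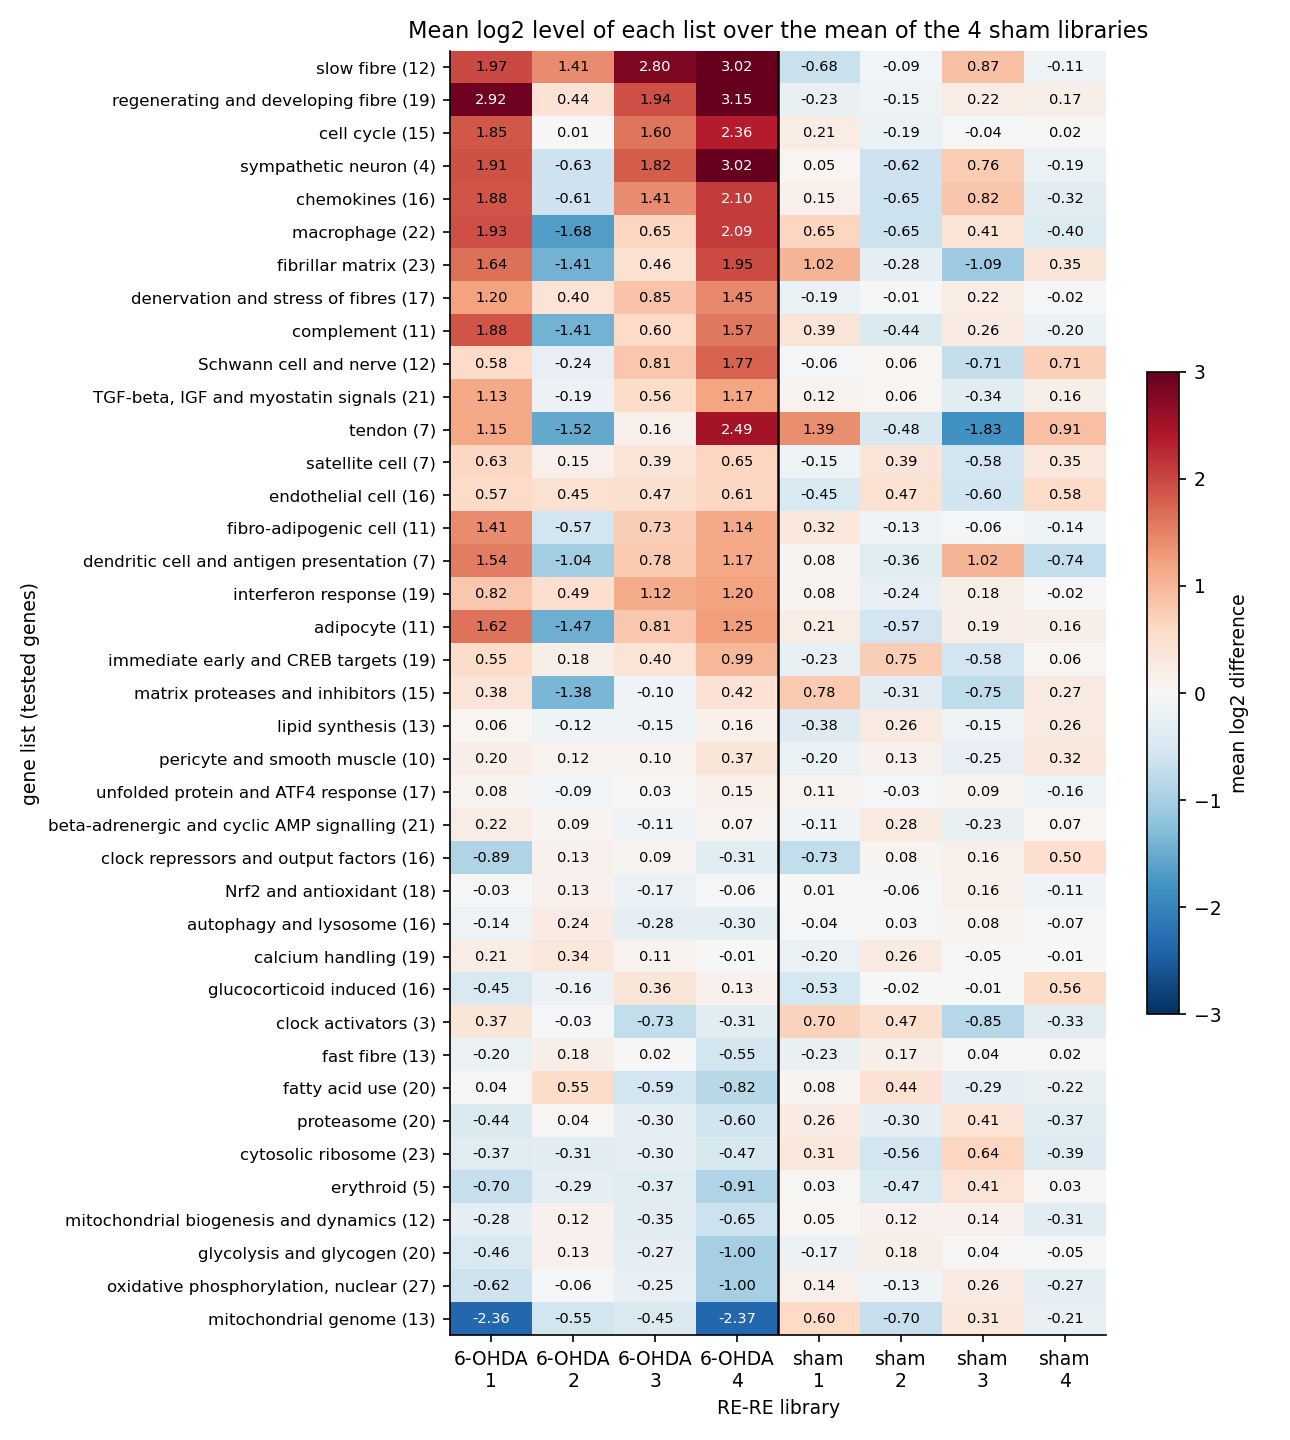
Mean log2 level of each gene list with at least 3 tested genes, over the mean of the 4 sham libraries, in the 4 RE-RE 6-OHDA libraries (left of the line) and the 4 sham libraries (right), ordered by the median log2 difference. The slow-fibre row is above 0 in all injected libraries (1.97, 1.41, 2.80 and 3.02), while 6-OHDA library 2 is below 0 on the macrophage and fibrillar matrix rows (-1.68 and -1.41).

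6-OHDA library 2, at ZT0 from a mouse of 12 weeks, the youngest of the injected mice, differed from the other injected libraries more than they did from each other. Its root mean square log2 difference over the 12820 genes was 1.29 to library 1, 1.15 to library 3 and 1.44 to library 4, a mean of 1.29, whereas the means of libraries 1, 3 and 4 to the rest of their group were 1.03, 1.02 and 1.08. To the 4 sham libraries it averaged 1.04, and the nearest library of all was sham library 2 at 0.889. Library 2 lay outside the range of the other 3 injected libraries by over 1 log2 unit for 312 genes above and 1045 below, 10.6% of genes in all. For libraries 1, 3 and 4 that share was 1.24%, 1.23% and 2.07%, and for sham libraries 1.68% to 3.86%. Of 1764 genes over 1 log2 unit higher than sham in the mean of the other 3 injected libraries, library 2 was nearer to the sham mean for 1485 (84.2%). Of 832 genes lower by as much, it was nearer to the sham mean for 717 (86.2%). On a scale where 0 is the sham mean and 1 the mean of the other 3, its median position was 0.024 and 0.11 for these sets. The sham mean enters both the choice of these genes and the scale, and no test was made.

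The genes farthest above the other injected libraries in library 2 included Pfkfb3, which drives glycolysis, Chac1, a stress-induced enzyme of glutathione breakdown, and Fbxo32, the atrophy ubiquitin ligase atrogin-1. Pfkfb3 had 5.97, 52.9, 5.02 and 4.07 FPKM in 6-OHDA libraries 1 to 4, against 5.99, 42.4, 9.40 and 26.6 FPKM in sham libraries 1 to 4. Fbxo32 had 27.1, 113, 19.9 and 22.8 FPKM after 6-OHDA, against 56.6, 110, 44.5 and 58.9 FPKM in sham muscle. For both genes library 2 was closest to sham library 2, and the other injected libraries were at or below the lowest sham value. Among the genes farthest below were Krt8, a keratin, Adipoq, the adipocyte hormone adiponectin, and Mymk. Krt8 had 8.01, 0, 2.02 and 12.4 FPKM after 6-OHDA, against 0.0386, 0, 0 and 0.104 FPKM in sham muscle. Adipoq had 16.3, 0.0671, 3.80 and 6.89 FPKM after 6-OHDA, against 4.39, 0.587, 1.84 and 1.39 FPKM in sham muscle, so library 2 was the lowest of all 8. For the slow-fibre genes Tnnt1, Myh7, Atp2a2, Tpm3, Myl2 and Myoz2, by contrast, library 2 lay above every sham library. For Tnni1 and Tnnc1 it lay below sham library 3. Library 2 was also above every sham library for some genes of other lists, such as Myh3, Tnnt2, Ankrd1, Oasl2, Irf7 and Isg15. limma's array weights, which estimate how far each library keeps to its group, were 5.29, 0.280, 0.808 and 1.70 for 6-OHDA libraries 1 to 4 and 0.275, 1.55, 0.205 and 5.65 for sham libraries 1 to 4. Library 2 was therefore not the least regular library by that measure, since sham libraries 1 and 3 had lower weights. Whether the dose reached library 2 was not tested.

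**Figure D3:**
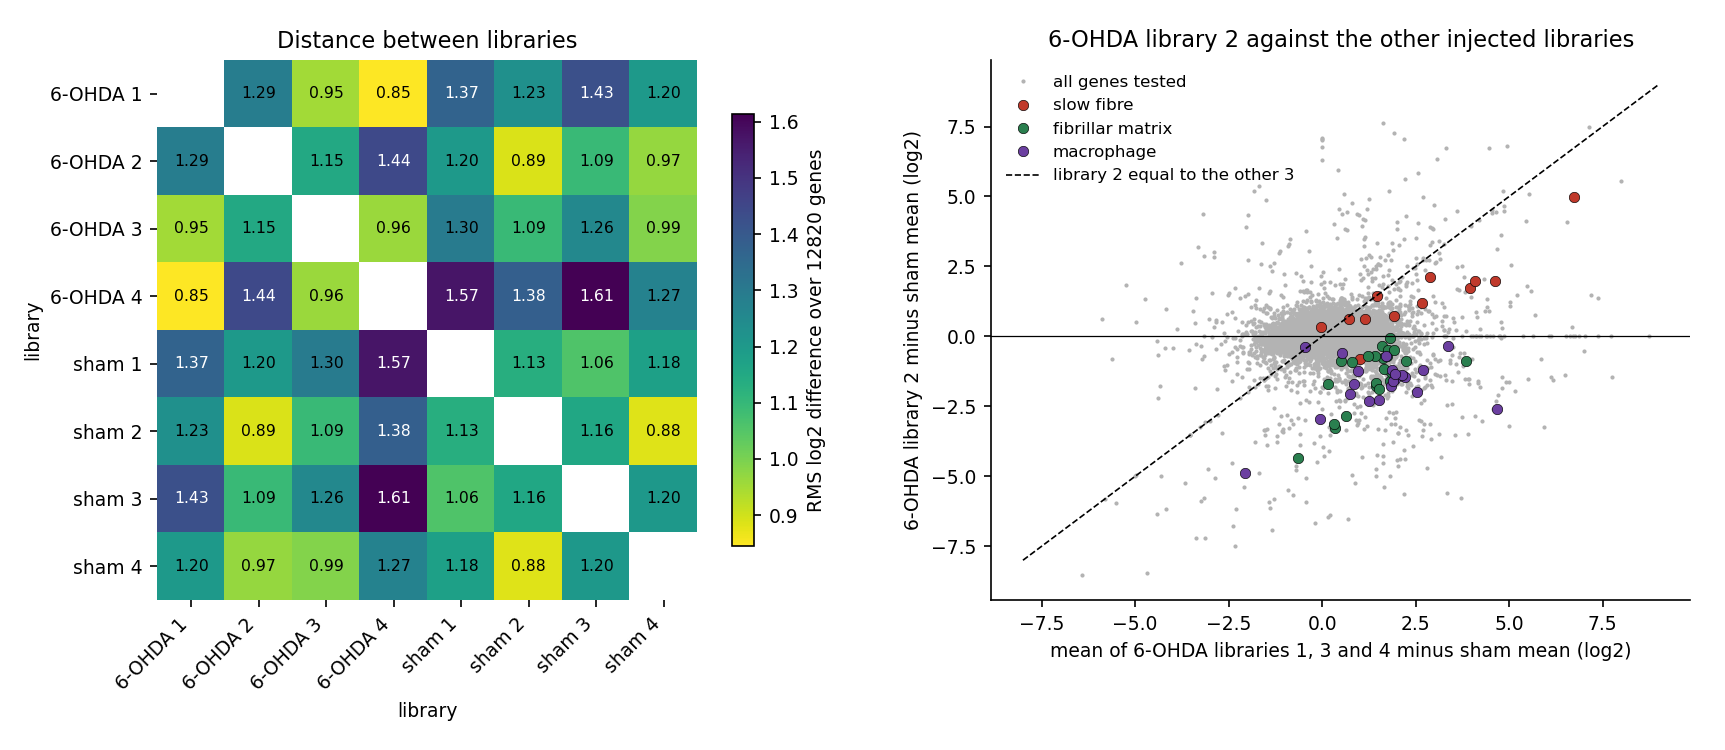
Left, root mean square log2 difference between each pair of the 8 RE-RE libraries over 12820 genes, with 6-OHDA library 2 nearest to sham library 2 (0.889). Right, for each gene, 6-OHDA library 2 minus the sham mean (vertical) against the mean of 6-OHDA libraries 1, 3 and 4 minus the sham mean (horizontal), both in log2 units, with slow-fibre, fibrillar matrix and macrophage genes in colour and a dashed line where both are equal.

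Among genes lower in 6-OHDA muscle, the 8 with the smallest p were Cytl1, Mmp9, Xlr3b, Bglap, Ppp1r3c, Fv1, Lrtm1 and Ighm, none past the adjusted threshold. Cytl1, a secreted protein known from cartilage and marrow progenitors, had 1.27, 1.10, 1.24 and 0.684 FPKM after 6-OHDA, against 3.82, 2.83, 2.56 and 3.20 FPKM in sham muscle (log2 -1.55 ± 0.27, limma adjusted p = 0.241). Bglap, which encodes the bone hormone osteocalcin, had 0.0658, 0, 0.193 and 0.159 FPKM after 6-OHDA, against 11.9, 4.002, 0.7003 and 4.41 FPKM in sham muscle. Mmp9, a protease of osteoclasts and neutrophils, had 0.172, 0.196, 0.729 and 0.269 FPKM after 6-OHDA, against 26.5, 5.86, 1.76 and 6.85 FPKM in sham muscle. In both of these the groups did not overlap, and sham library 1 was the highest of the 8. Bglap has a near-identical neighbour, Bglap2, and reads of both may have been split between them.

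Other genes of bone cells were listed after these values were seen and therefore not tested as a group. Of 12 such genes 10 were highest in sham library 1, and Sp7 and Alpl, of osteoblasts, in sham library 4. Ibsp, bone sialoprotein, had 0, 0.0448, 1.57 and 0.825 FPKM in 6-OHDA libraries 1 to 4, against 124, 12.1, 2.43 and 47.5 FPKM in sham libraries 1 to 4. Mmp13, the collagenase of osteoblasts and chondrocytes, had 0.987, 0.156, 4.41 and 3.12 FPKM after 6-OHDA, against 159, 15.5, 2.41 and 61.7 FPKM in sham muscle. Ctsk, the collagen protease of osteoclasts and also of fibroblasts, had 26.8, 3.52, 18.6 and 35.7 FPKM after 6-OHDA, against 102, 17.6, 9.55 and 32.4 FPKM in sham muscle, with overlap and a difference of 0.067 without library 2. Atp6v0d2, an osteoclast proton pump subunit, likewise differed by 0.82 without library 2. Summed over the 12 genes, the level was 40.9, 7.66, 42.9 and 62.1 FPKM after 6-OHDA and 723, 104, 32.4 and 255 FPKM in sham muscle, so the sums overlapped at sham library 3. In wild-type muscle Ibsp ranged up to 12.9 FPKM after 6-OHDA and up to 8.35 FPKM in sham muscle. The part of bone tissue in the levels of Mmp9, Bglap, Mmp13 and of the matrix genes was not tested.

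Lrtm1, a leucine-rich membrane protein of muscle, had 11.1, 28.1, 13.5 and 7.88 FPKM after 6-OHDA, against 47.4, 41.5, 49.2 and 28.8 FPKM in sham muscle, and fell without library 2 by 1.92 ± 0.28 log2 units (limma adjusted p = 0.0351). Ighm, the heavy chain of immunoglobulin M, had 7.91 to 11.496 FPKM after 6-OHDA and 15.8 to 31.6 FPKM in sham muscle, without overlap. Xlr3b, an X-linked gene imprinted in mouse brain, had 0.107 to 0.967 FPKM after 6-OHDA and 1.38 to 3.32 FPKM in sham muscle, without overlap. Ppp1r3c, a glycogen-targeting subunit of a phosphatase, had 106, 70.4, 67.3 and 35.7 FPKM after 6-OHDA and 289, 216, 132 and 89.7 FPKM in sham muscle. Fv1, a restriction factor for retroviruses, had 2.09, 2.89, 1.53 and 1.33 FPKM after 6-OHDA and 5.95, 4.11, 3.29 and 2.79 FPKM in sham muscle. Among the higher genes, Sh2d6, which encodes a protein with an SH2 domain, had 1.31 to 3.89 FPKM after 6-OHDA and 0.442 to 1.0001 FPKM in sham muscle. Map3k7cl had 35.7 to 85.0 FPKM after 6-OHDA and 12.5 to 18.8 FPKM in sham muscle, and both genes were without overlap.

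**Figure D4:**
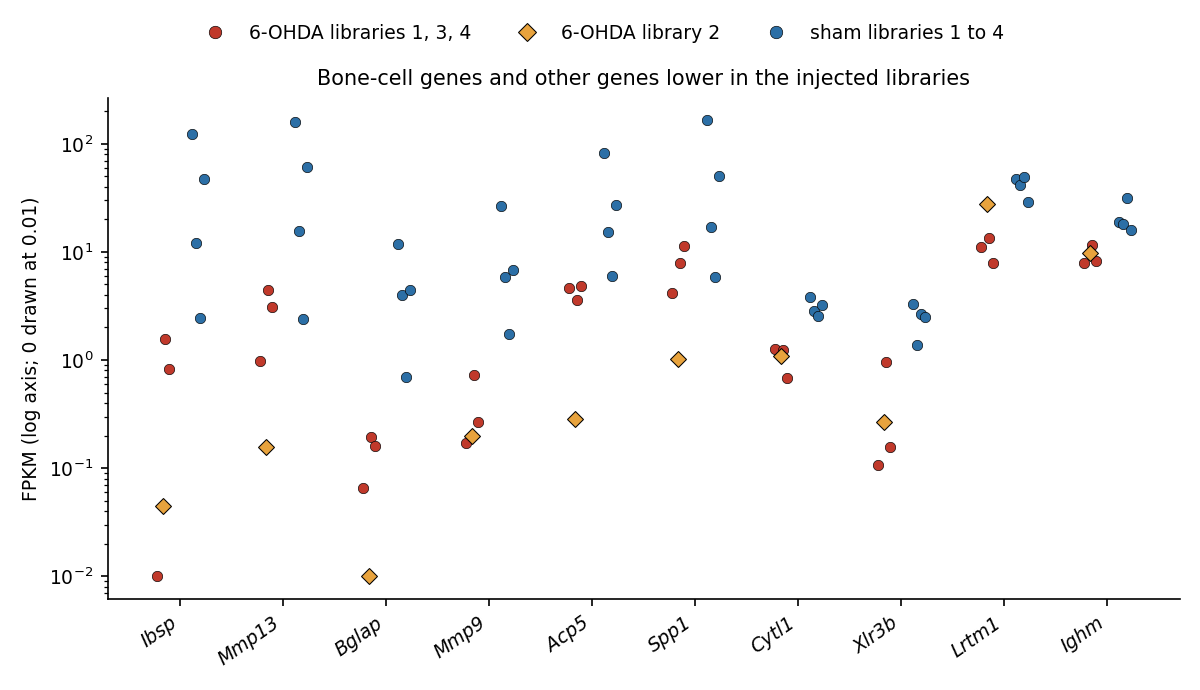
FPKM (log axis) of 6 bone-cell genes and of Cytl1, Xlr3b, Lrtm1 and Ighm in each RE-RE library, with 6-OHDA libraries 1, 3 and 4 in red, 6-OHDA library 2 as an orange diamond and the 4 sham libraries in blue. Sham library 1 is the highest library for Ibsp (124 FPKM), Mmp13 (159 FPKM) and Bglap (11.9 FPKM).

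Genes of sympathetic endings could be read only in part. Of 10 markers of sympathetic neurons, 4 were tested (Th, Slc18a2, Gap43 and Ngfr), and the defining noradrenaline genes Dbh and Slc6a2 were not analysed here. Th, which encodes tyrosine hydroxylase (ENSMUSG00000000214, chromosome 7, 142892752 to 142931128, minus strand), had 0.584, 0, 0.554 and 2.96 FPKM in 6-OHDA libraries 1 to 4, against 0, 0.0180, 0.0229 and 0 FPKM in sham libraries 1 to 4. It was thus above every sham library in 3 of 4 injected libraries and listed at 0 in library 2 and in sham libraries 1 and 4. Without library 2 it rose in limma (adjusted p = 0.0445), with a size that depends on the 0.01 added before the log. In both genotypes Th and Gap43 reached an FPKM of 1 in injected libraries only. Both were therefore tested through the group where they are high, and their calls carry that limit. Slc18a2, which loads monoamines into vesicles, had 0.598, 1.19, 0.564 and 0.337 FPKM after 6-OHDA, against 1.65, 0.796, 1.41 and 0.691 FPKM in sham muscle. It thus lay on the other side of sham muscle from Th, with overlap, at a log2 difference of -0.80 ± 0.43 (limma adjusted p = 0.315) and of -1.07 without library 2 (0.148). In wild-type muscle the difference of Slc18a2 was -0.59 (limma adjusted p = 0.00378). The other tested markers were on the higher side there, Th at 2.22 (adjusted p = 0.000461), Gap43 at 2.79 (3.1e-05) and Ngfr at 0.46 (0.179). In RE-RE muscle Gap43, a protein of growing axons, had 0.774, 0, 0.600 and 2.07 FPKM after 6-OHDA, against 0.0914, 0, 0.284 and 0.0925 FPKM in sham muscle. Ngfr, a neurotrophin receptor, had 0.943 to 2.80 FPKM after 6-OHDA and 0.816 to 1.12 FPKM in sham muscle. Neither Gap43 nor Ngfr passed in limma in RE-RE muscle, with or without library 2. The cell bodies of sympathetic neurons lie outside the muscle, so loss of endings cannot be read from this transcript.

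On the receiving side, of 21 tested genes of beta-adrenergic and cyclic AMP signalling, 1 was higher and 2 lower at an unadjusted p under 0.05, with a median of -0.02, equal to that of all genes. Pde4b, a phosphodiesterase that breaks down cyclic AMP, had 5.26, 8.24, 4.03 and 3.22 FPKM after 6-OHDA and 12.1, 12.2, 8.83 and 5.96 FPKM in sham muscle (log2 -0.95 ± 0.22, limma adjusted p = 0.279). Prkar2a, a regulatory subunit of protein kinase A, had 17.0 to 46.0 FPKM after 6-OHDA and 36.1 to 49.7 FPKM in sham muscle. Arrb2, a beta-arrestin that desensitises receptors, had 2.59 to 4.62 FPKM after 6-OHDA and 1.22 to 2.74 FPKM in sham muscle.

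Arntl (ENSMUSG00000055116, chromosome 7, 113207465 to 113314126, plus strand), the gene restored in these mice, had 9.61 and 8.87 FPKM at ZT0 and 2.37 and 3.97 FPKM at ZT12 in 6-OHDA muscle, against 11.0 and 14.3 FPKM at ZT0 and 2.83 and 4.07 FPKM at ZT12 in sham muscle. It was expressed in all 8 libraries, and its treatment difference was -0.30 ± 0.24 log2 units with a 95% interval of -0.84 to 0.25 (limma adjusted p = 0.446). Clock, its partner, had a difference of -0.68 ± 0.25 (adjusted p = 0.279). Of 16 repressors and output factors of the clock, 3 were lower at an unadjusted p under 0.05 and none higher, with a median of -0.07, which was -0.55 without sham libraries 1 and 3. Hlf and Rora, which encodes an activator of Arntl, were among them. Hlf, an output factor that binds D-boxes, had 0.255, 1.81, 0.654 and 0.305 FPKM after 6-OHDA and 1.38, 1.79, 2.52 and 2.13 FPKM in sham muscle. Rora had 3.91, 9.04, 4.27 and 2.58 FPKM after 6-OHDA and 12.7, 8.65, 12.7 and 7.02 FPKM in sham muscle. In both, library 2 lay among the sham libraries and the other injected libraries below them. Without library 2, Hlf fell (log2 -2.44 ± 0.35, limma adjusted p = 0.0351).

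Among further lists, chemokines had a median of 1.09 over 16 genes (4 higher at an unadjusted p under 0.05), signals of the TGF-beta, IGF and myostatin pathways 0.68 over 21 (5 higher, 2 lower), Schwann cell and nerve genes 0.76 over 12 (2 higher), and immediate early genes 0.53 over 19 (5 higher). Without sham libraries 1 and 3 the Schwann cell median was 0.14 and the immediate early median 0.23. Genes of the cytosolic ribosome had a median of -0.38 over 23 genes, of the proteasome -0.34 over 20 and of fatty acid use -0.32 over 20. Scaled by own totals these 3 medians were 0.01, 0.05 and 0.07, so their sign depends on the scaling. Without sham libraries 1 and 3 the ribosome median was 0.096 and the proteasome median 0.017, and summed ribosome levels were 3466 to 4075 FPKM after 6-OHDA against 6069, 3511, 7936 and 3919 FPKM in sham libraries 1 to 4.

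Wild-type muscle was fitted the same way for comparison, with 3122 genes higher (24.4%) and 3586 lower (28%) after 6-OHDA in limma at an adjusted p under 0.05. Of the 192 genes that rose in RE-RE muscle without library 2, 176 (91.7%, or 5.64% of the wild-type list) also rose in wild-type muscle and none fell. Of the 69 that fell, 53 (76.8%, or 1.48%) also fell in wild-type muscle and 1 rose. The genotypes' injected and sham libraries are separate samples. The difference between the treatment effects in RE-RE and wild-type muscle passed an adjusted p of 0.05 for 0 genes (0%) in limma, with 686 at an unadjusted p under 0.05. Slow-fibre genes had a median of 1.97 in RE-RE and 1.31 in wild-type muscle, and regeneration genes 1.73 in RE-RE and 1.78 in wild-type muscle. Fibrillar matrix had 0.89 in RE-RE and 1.97 in wild-type muscle, where 23 of 23 genes rose, and macrophage genes had 1.05 in RE-RE and 2.26 in wild-type muscle, where 21 of 22 rose. Without 6-OHDA library 2 the RE-RE medians were 2.23 for slow-fibre, 2.46 for regeneration, 1.63 for fibrillar matrix and 1.89 for macrophage genes. The lower matrix and macrophage medians of RE-RE muscle thus depended in large part on that library. The differences between the genotypes' medians were not tested.

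The 6 genes with the smallest p for this difference were C1galt1, Txnip, Lmbrd2, Lysmd3, Lnpep and Scd1, all at a limma adjusted p of 0.802. Txnip, which restrains glucose uptake, had an effect of 0.74 ± 0.40 log2 units in RE-RE and of -1.01 ± 0.14 in wild-type muscle, a difference of 1.72 ± 0.39. Scd1, a fatty acid desaturase, had -0.66 ± 0.59 in RE-RE and 1.67 ± 0.18 in wild-type muscle, a difference of -2.35 ± 0.59. Its RE-RE effect was 0.006 ± 0.36 without 6-OHDA library 2, which had 2.06 FPKM. C1galt1, a glycosyltransferase, Lmbrd2, Lysmd3 and the aminopeptidase Lnpep had differences of -1.57, -1.88, -1.16 and -1.93. In the alternative fit without genotype weights, which takes the spread as equal in both genotypes, C1galt1 and Lmbrd2 (limma adjusted p = 0.0307 each) and Lnpep (0.0475) passed.

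**Figure D5:**
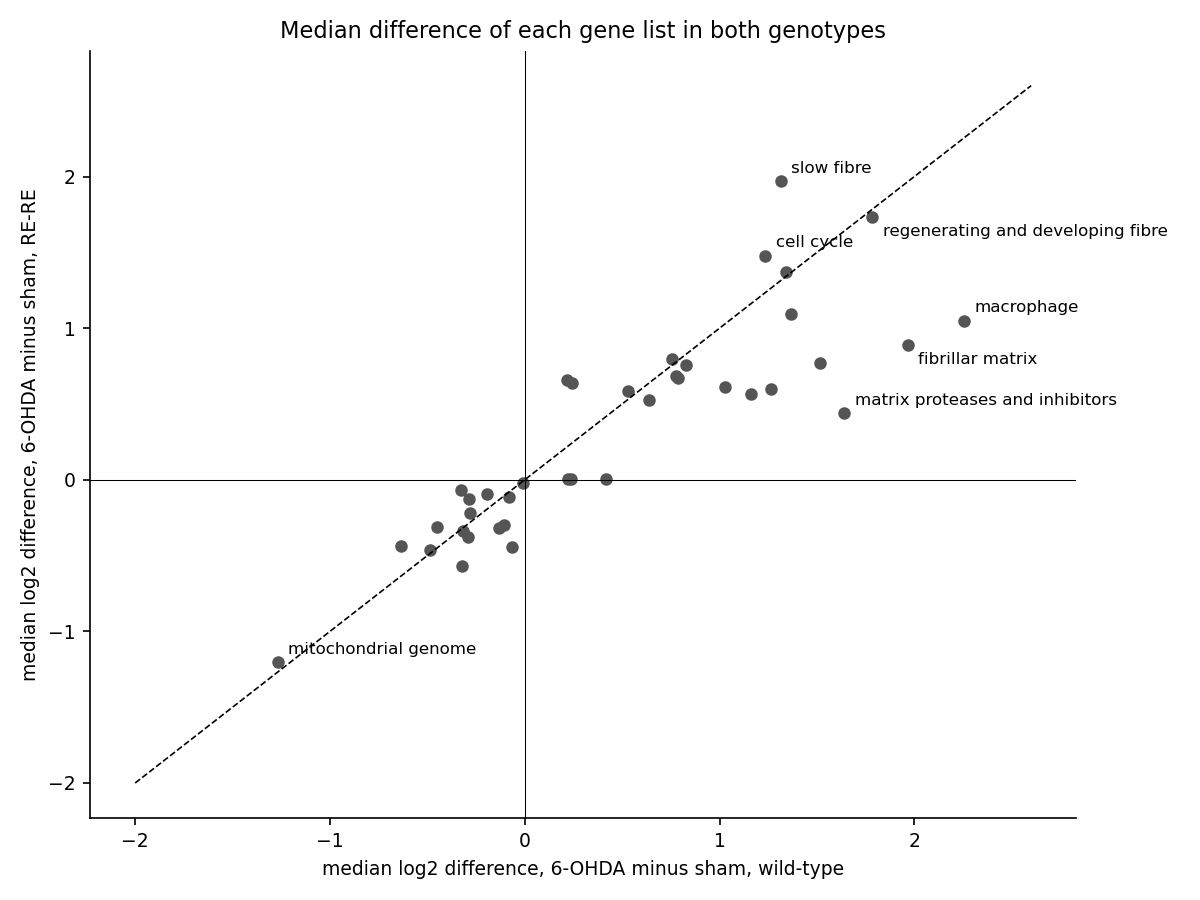
Median log2 difference, 6-OHDA minus sham, of each gene list with at least 3 tested genes in RE-RE muscle (vertical) against wild-type muscle (horizontal), with a dashed line where both are equal. Slow fibre lies above the line at 1.97 in RE-RE and 1.31 in wild-type muscle, and macrophage below it at 1.05 in RE-RE and 2.26 in wild-type muscle. All RE-RE libraries are included, and without 6-OHDA library 2 the RE-RE macrophage median was 1.89.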

How the data were processed

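Total RNA of the tibialis anterior was sequenced from both ends. The submitters' processing notes list HISAT2 2.1.0 beside the build GRCm38, edgeR 3.30.0 and featureCounts 1.6.2, and for read quality Trim Galore 0.5.0 and FastQC 0.11.8. The authors deposited log2 values, log2(FPKM + 0.01), for 14500 genes. Strand use in counting and any factor between libraries are not given in the sources used here. Names, positions and lengths came from GENCODE M21. Reads were recovered from the steps between low values, and 86.5% to 94.7% of low values per RE-RE library were whole within 0.1 read. Their ratio to the total behind the FPKM unit was 0.848 to 1.36 in 6-OHDA and 1.25 to 1.52 in sham libraries.

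A gene was tested where 2 or more of the 23 libraries reached an FPKM of 1 (12820 genes), of which 742 reached that level in fewer than 2 RE-RE libraries. Genes that reached it in injected libraries only were tested through the group where they are high, among them Mki67, Cdc20, Mcm5, Th and Gap43. The log2 values were fitted with limma 3.58.1 (R 4.3.3) on time and treatment, with the spread from the 8 RE-RE libraries (5 residual degrees of freedom) and Benjamini-Hochberg adjustment. Wild-type muscle was fitted likewise on its own, and the difference between genotypes on all 23 libraries with weights by genotype. Fits were tested on simulated data. Named genes are Arntl, 8 genes higher and 8 lower at a mean FPKM of 2 or more, taken by the smallest p since none passed, up to 4 per list, 6 for the difference between genotypes and up to 8 on each side for library 2. Mir544, Uchl1, Chrng, Myl2, Myoz2, Tnnc1 and the bone-cell and Dlk1-Dio3 genes were added after their values were seen, and all members and lists were chosen with earlier results of these data known. For samples with the same replicate number, deviations from group means correlated at 0.101 (numbers 1 and 2) and 0.165 (3 and 4). With 2 libraries per group, exchanging the partners only changes the sign of this correlation, so it cannot show whether the numbers pair the samples. Ages of same-numbered samples differ. The alternatives are named in the closing section. Raw reads were not analysed here, and results for a few genes are not reported here. Tables were made with pandas 2.3.3 and numpy 2.4.6 in python 3.11.15, and figures with matplotlib 3.10.9.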

Additional observations from a re-analysis of the deposited data

Results flagged for a closer look

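Of 238 groups of 4 libraries examined, 8 held a library set apart from the other 3 (Dixon's test at the 95% level). Chance alone gives about 1 in 20, a larger share than was found. Tnni1 was high in sham library 3, at 5.57 FPKM against 0.675 to 0.848 FPKM in the other sham libraries, and Dlk1 was high in sham library 4, at 0.307 FPKM against 0.0956 to 0.111 FPKM. Chrnb1 was low in sham library 1, at 8.50 FPKM against 14.4 to 15.6 FPKM, and Mcm5 was low in sham library 3, at 0.269 FPKM against 0.346 to 0.357 FPKM. Oas1a was low in 6-OHDA library 2, at 0.491 FPKM against 1.79 to 2.21 FPKM in the other injected libraries. Pfkfb3 was high in 6-OHDA library 2, at 52.9 FPKM against 4.07 to 5.97 FPKM in the other injected libraries. It had been named because library 2 stood far above them, so this flag follows from that choice. Fibro-adipogenic genes stood at 0.32 log2 units over the sham mean in sham library 1, against -0.14 to -0.06 in the others. Adipocyte genes stood at -0.57 in sham library 2, against 0.16 to 0.21 in the others.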

How the results depend on the processing

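The count of 0 genes moved to 3 with log2(FPKM + 1) (Mir544, Myh7, Tnnt1), 2 without a filter (Mir544, Mir6481), 2 where the mean log2 FPKM reached 1 and 2 in limma-voom on recovered reads (Myh7 and Tnnt1 in both), 1 with quantile normalization (Myh7), 2 with 1 mean per group (Mir339, Tnnt1), 4672 with array weights (2215 higher, 2457 lower) and 3446 with the spread pooled over all 23 libraries (1522 higher, 1924 lower). It was 0 with own totals, with age as a covariate (286 at an unadjusted p under 0.05), at ZT0 (180) or ZT12 alone (1379), without 6-OHDA library 2 and sham libraries 1 and 3 (3220), and without sham libraries 1 and 3 (796), an alternative added after seeing the data. Leaving out 1 library gave 0 to 261, with 261 without 6-OHDA library 2. With the replicate block, which treats same-numbered samples as pairs, 1 gene passed and no other call changed. The difference between genotypes gave 9 genes without weights and 0 in all other alternatives, the block and each left-out library included.

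The mean distance of 6-OHDA library 2 to the other injected libraries was 0.666 with log2(FPKM + 1) and 0.801 with the stricter filter, against 0.479 to 0.546 and 0.559 to 0.638 for libraries 1, 3 and 4. Age and treatment do not overlap in these mice, and with age as a covariate the difference reversed for Rora (0.18), Hlf (0.68), Igf2 (-0.71), Dlk1 (-1.28), Krt18 (-0.85), Myh2 (-0.12), Pvalb (0.52), Ppp1r3a (0.30), mt-Co3 (0.22), Prkar2a (0.040), Th (-1.84), Col14a1 (-1.92), Loxl1 (-0.90), Mfap5 (-1.20), Gpnmb (-1.84), Fcer1g (-1.74), Mcm5 (-0.091), Slc18a2 (0.49), Gap43 (-2.35), Pfkfb3 (1.37), Fbxo32 (0.34), Krt8 (-2.23) and Adipoq (-4.68). Arntl reversed with own totals (0.092). Chac1, at 0.029 with all 8 libraries, was -0.025 in limma-voom, -1.56 with array weights, -0.896 at ZT12, -1.81 without 6-OHDA library 2 and sham libraries 1 and 3, -0.92 without those sham libraries, and -0.85 to 0.62 with 1 library left out. At ZT0 alone Pfkfb3 was 0.16 and Adipoq -0.53, and at ZT12 alone Ctsk was 0.55 and Scd1 0.037. Ctsk was 0.071 without 6-OHDA library 2 and sham libraries 1 and 3. With 1 library left out, Ctsk ranged over -1.40 to 0.067, Adipoq over -0.76 to 2.33 and Scd1 over -1.07 to 0.0060. The causes were not tested. Over the named genes recomputed in each alternative, 40 values reversed, 186 newly passed and 1657 kept direction and call. The sympathetic list has no median under the stricter filter, since none of its genes was left. Depth limits genes of a few reads, such as Mir544, Th and Chrng.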
